A study of Mus musculus with 6 samples.

Results

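The nuclear genes for subunits of the mitochondrial respiratory chain were followed as 1 set in RNA-seq of primary mouse Sertoli cells. A gene belonged to the set if its symbol was Nduf followed by a, b, c, s, v or ab and a number, was Sdha, Sdhb, Sdhc or Sdhd, or began with Uqcr, Cox4 to Cox8 or Atp5. Of the 29275 genes in the deposited tables, 87 met this rule: 37 of complex I, 4 of complex II, 8 of complex III, 19 of complex IV and 19 of complex V. Another 4 genes with names ending in -ps and a number were left out. Atp5c1-ps and Atp5l2-ps stayed in, and both are annotated as processed pseudogenes, as is Cox6c2. Ndufa4 carries a complex I name and was counted there, although structural work places its protein in complex IV.

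Sertoli cells are the somatic cells that enclose and feed the germ cells of the seminiferous tubule. The cultures came from wild-type mice (WT, 3 libraries) and from mice in which Arhgef15 was conditionally deleted per the labels (cKO, 3 libraries). Arhgef15 encodes a guanine nucleotide exchange factor. Both groups were untreated and were kept in DMEM/F12 with serum, antibiotics and EGF. For the Cre driver, strain, age and any pooling of animals nothing is given in the sources used here. The labels call the libraries biological replicates without naming an animal for each, so a p-value here reflects how far these libraries spread, which may be technical. Values are FPKM, fragments scaled to exon length and library depth, and 3 values in succession are those of replicates 1, 2 and 3.

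Complexes I to IV pass electrons from NADH and succinate to oxygen, and complexes I, III and IV pump protons across the inner mitochondrial membrane as they do so. Complex V, the ATP synthase, lets the protons flow back and uses the flow to make ATP. Most subunits are encoded in the nucleus, while a few subunits of complexes I, III, IV and V are encoded in mitochondrial DNA. Sertoli cells are known for a glycolytic metabolism that supplies lactate to germ cells, which use it in their mitochondria.

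The fragments behind each library numbered between 16790000 and 20320000. The targeted gene did not check the labels: Arhgef15 was at 0.123, 0.0237 and 0.349 FPKM in WT and at 0.501, 0.322 and 0.338 FPKM in cKO, and the groups overlapped (two-sided exact permutation p = 0.3, where 0.1 is the smallest the design can give). For this reason "cKO" stands below for the libraries labelled cKO. WT replicate 3 stood apart from the other WT libraries: over all genes tested its correlation was 0.860 and 0.898 with WT 1 and WT 2, and 0.921 to 0.947 with the cKO libraries. Of 17 Sertoli markers, Clu, Gata4, Sox9 and Wt1 were read in every library, while Amh stayed at or below 1.17 FPKM and Fshr was listed at 0 in WT 1 and WT 2. Sox9 was at 5.97, 5.10 and 20.2 FPKM in WT and 22.3, 24.1 and 35.6 FPKM in cKO.

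No member passed the test between the groups. limma called 0 of the 85 members that reached 1 FPKM in at least 3 libraries at an adjusted p under 0.05, and it called 2 of 12284 genes in all (0.0163%). At an unadjusted p under 0.05, limma listed 8 members as lower in cKO and 1 as higher, beside 2.94% and 3.87% of all genes tested, and the smallest adjusted p of a member was 0.545. Without WT 3 limma called 478 genes (174 lower, 1.42%, and 304 higher, 2.47%) and again 0 members. The members not tested were Cox8b and Atp5c1-ps, each listed at 0 in all libraries but 1. The median log2 difference, cKO minus WT on the log2(FPKM + 1) scale, was -0.15 over the members and 0.08 over all genes tested. Among genes averaging at least 20 FPKM the median was -0.16 over the members and 0.005 over all genes tested. The difference was negative in 54 members and positive in 31, where 40.2% of all genes tested, and 49.1% of those averaging at least 20 FPKM, were negative. In RNA from a whole culture, fewer cells of a type and less RNA per cell cannot be told apart.

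**Figure D1:**
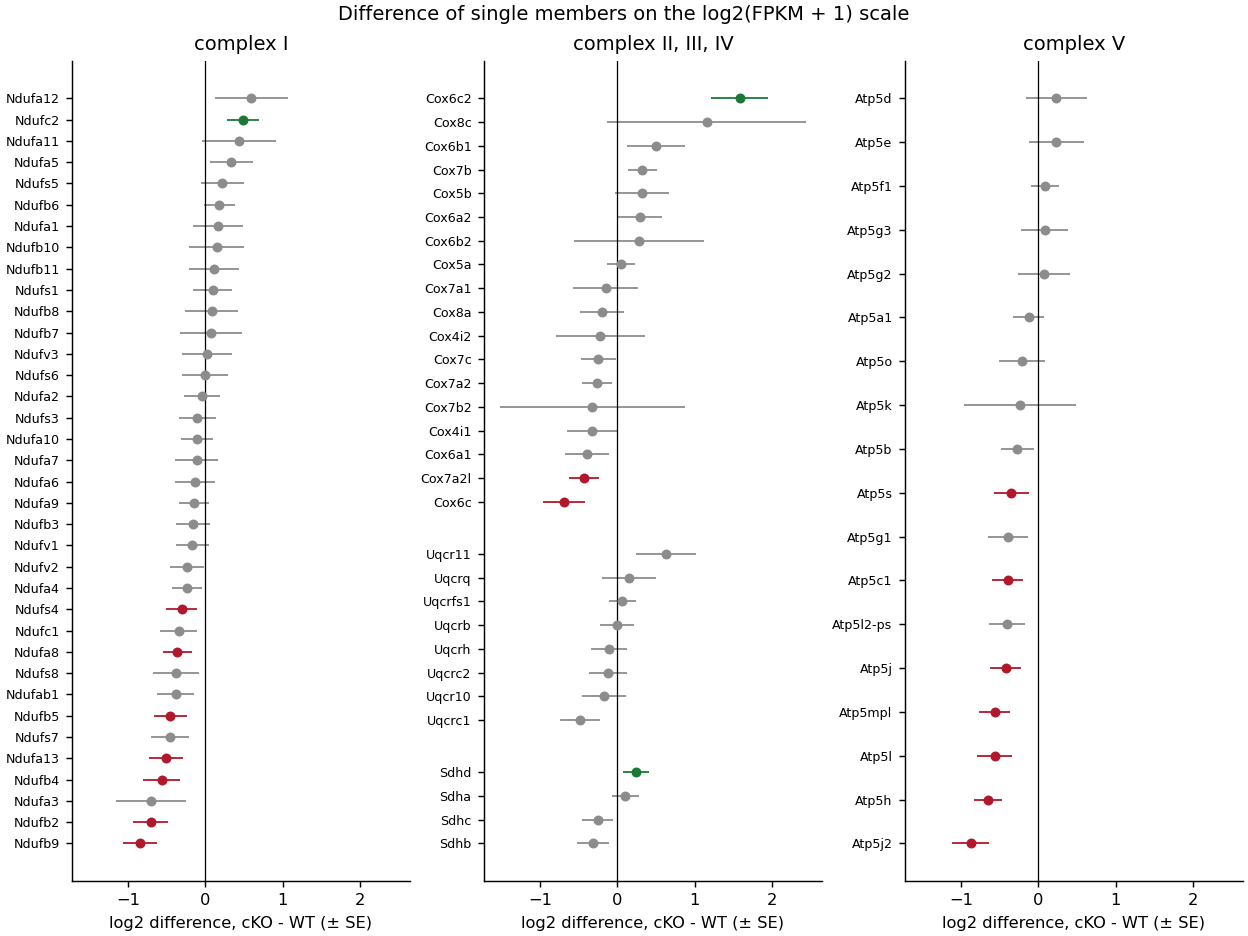
Log2 difference, cKO minus WT on the log2(FPKM + 1) scale, of 84 of the 85 members tested, with bars of 1 SE, sorted within each complex. Red marks members whose cKO values all lay below the WT values, green those whose cKO values all lay above, and grey those whose groups overlapped; more red points stand in complexes I and V than in II, III or IV.

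In 16 members (18.8% of those tested) all 3 cKO values lay below all 3 WT values. This order was found in 5.01% of all genes tested and in 7.38% of genes averaging at least 20 FPKM, while 17.2% of the members at that level had it. Complex V held 7 of the 16, or 38.9% of its tested members, and complex I held 7, or 18.9%. The other 2 were the complex IV genes Cox6c and Cox7a2l, and complexes II and III held none. The opposite order was seen in 3 members (3.53%, beside 6.28% of all genes tested and 5.89% of those averaging at least 20 FPKM): Ndufc2, Sdhd and Cox6c2. Set against WT 1 and WT 2 alone, a comparison chosen after seeing the data, 24 members lay below and 6 above, beside 15.5% and 25.9% of all genes tested.

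**Figure D2:**
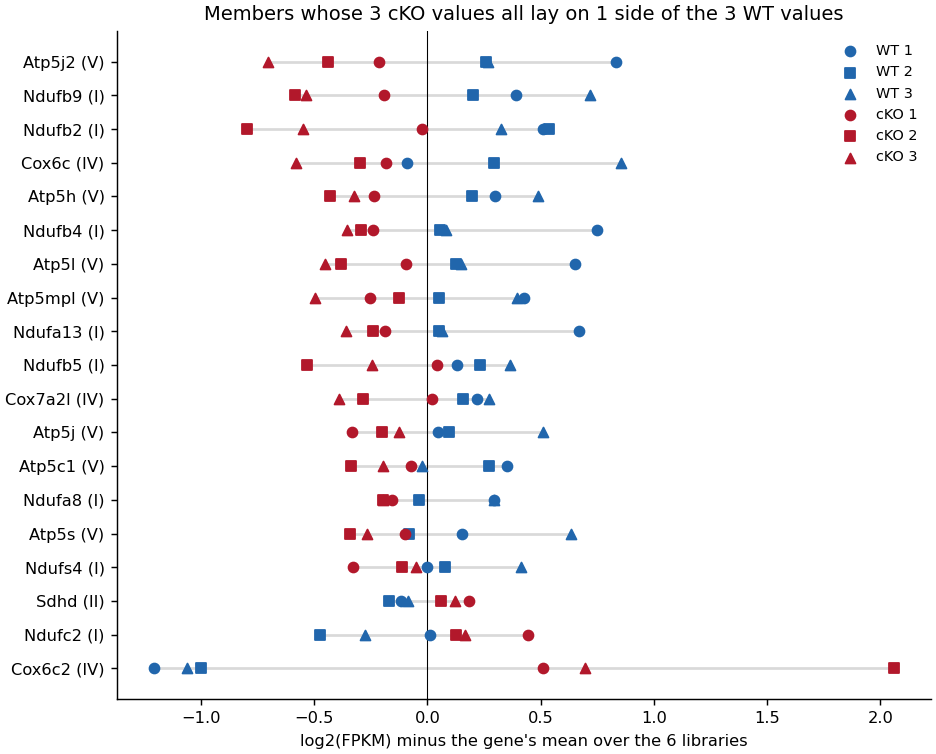
Level of the 19 members whose cKO and WT values did not overlap, as log2(FPKM) minus the gene's mean over the 6 libraries, with the complex in brackets. In the upper 16 genes the red cKO points lie left of the blue WT points; WT 1 is the highest library in some of them and WT 3 in others.

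Summed over a complex, the levels of the groups overlapped in all 5 complexes. Complex I summed to 1776, 1224 and 1284 FPKM in WT and to 1406, 1259.7 and 1186 FPKM in cKO. Complex V summed to 1895, 1408 and 1238 FPKM in WT and 1421, 1257 and 1207 FPKM in cKO, and complex IV to 1819.5, 1196 and 1244 FPKM in WT and 1375, 1238 and 1083 FPKM in cKO. The highest sum of complexes I, III, IV and V was that of WT 1, and WT 1 was the highest library for 47 of the 85 members tested. Without WT 1 the log2 ratio of the summed levels went from -0.15 to 0.03 in complex I, from -0.08 to 0.13 in complex III, from -0.20 to 0.01 in complex IV and from -0.23 to -0.03 in complex V, and the members' median went from -0.15 to -0.05. Complex II stayed within 224 to 256 FPKM in all 6 libraries.

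**Figure D3:**
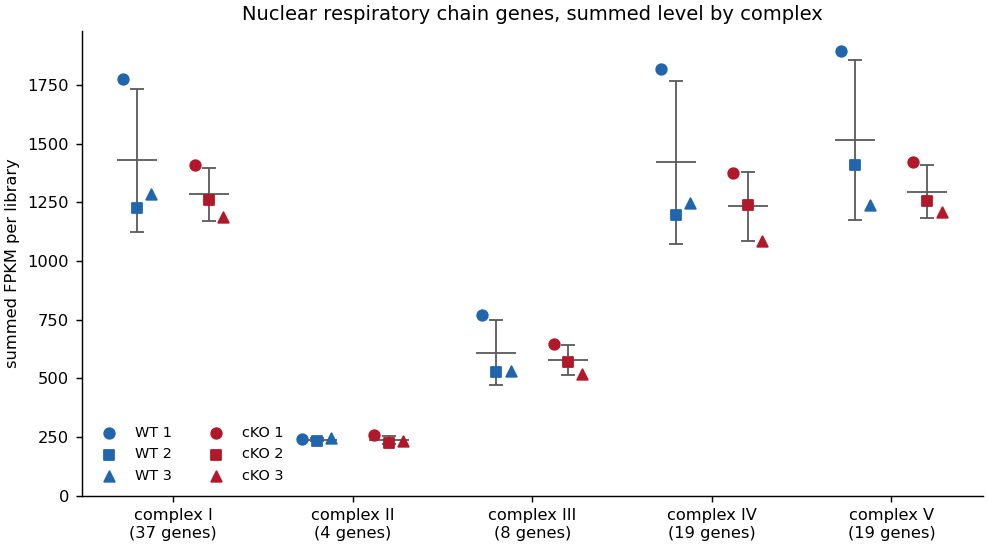
Summed FPKM of the member genes of each complex in each library, with the mean and SD of each group (n = 3). WT 1 is the highest point in complexes I, III, IV and V, and the remaining WT points lie among the cKO points.

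Complex I has a catalytic core that oxidises NADH and reduces ubiquinone, surrounded by accessory subunits that hold it together. Of its 37 members, 24 had a negative difference and 13 a positive one, with a median of -0.14. The 7 nuclear core genes summed to 409, 320.2 and 296 FPKM in WT and 325, 257 and 262 FPKM in cKO, which overlapped. Among them, 6 had a negative difference and 1 a positive one, with a median of -0.22. The positive one was Ndufs1, which carries iron-sulfur clusters of the NADH arm (difference 0.09 ± 0.26 SE).

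The complex I members that lay lower in every cKO library were accessory subunits: Ndufa8, Ndufa13, Ndufb2, Ndufb4, Ndufb5, Ndufb9 and Ndufs4. Ndufb9, a membrane-arm subunit that binds the mitochondrial acyl carrier protein, was at 42.9, 37.6 and 53.8 FPKM in WT and 28.6, 21.8 and 22.5 FPKM in cKO. Each cKO value lay well below the lowest WT value, and the log2 difference was -0.85 ± 0.22 (SE; limma adjusted p = 0.545). Ndufb4, also of the membrane arm, was at 39.4, 24.4 and 24.8 FPKM in WT and 19.8, 19.2 and 18.4 FPKM in cKO, a difference of -0.57 ± 0.23 (SE; limma adjusted p = 0.719). Its WT values were spread by WT 1, while its cKO values stayed close together. Ndufb2 was at 5.29, 5.38 and 4.66 FPKM in WT and 3.66, 2.14 and 2.54 FPKM in cKO (difference -0.71 ± 0.23 SE, limma adjusted p = 0.622). Its low level is per base of a gene annotated with 5628 exonic bases, against 861 for Ndufa8.

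Ndufa8, which stabilises the membrane arm from the intermembrane space, had the highest mean of complex I. It was at 106, 84.4 and 106 FPKM in WT and 77.7, 75.5 and 75.5 FPKM in cKO, a difference of -0.36 ± 0.19 (SE). Ndufa13, known also as the cell death regulator GRIM-19, was at 69.0, 45.0 and 45.5 FPKM in WT and 38.1, 36.9 and 33.9 FPKM in cKO. Ndufb5, of the membrane arm, had a difference of -0.45 ± 0.21, and Ndufs4, of the matrix arm, one of -0.31 ± 0.20 (SE). One accessory subunit lay higher in every cKO library: Ndufc2, a small membrane subunit, at 69.1, 49.3 and 56.5 FPKM in WT and 93.1, 74.8 and 76.8 FPKM in cKO (difference 0.48 ± 0.21 SE, limma adjusted p = 0.732). The other 21 accessory genes had overlapping groups, with values such as 111, 67.0 and 81.6 FPKM in WT and 87.7, 86.0 and 73.6 FPKM in cKO for Ndufa2.

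Complex II, succinate dehydrogenase, joins the citric acid cycle to the chain and is encoded by nuclear genes alone. None of its members passed the test, and the groups of 3 of the 4 overlapped. Sdhd, a membrane anchor, was at 83.6, 80.6 and 85.5 FPKM in WT and 103, 94.4 and 98.6 FPKM in cKO, so its groups did not overlap (difference 0.24 ± 0.17 SE, limma adjusted p = 0.831). Sdhc, the partner anchor, was at 50.2, 49.2 and 42.1 FPKM in WT and 46.1, 36.5 and 35.9 FPKM in cKO, a difference of -0.26 ± 0.20 (SE). The groups of Sdhc overlapped. In the catalytic dimer, the flavoprotein gene Sdha was at 43.7, 45.4 and 50.02 FPKM in WT and 46.6, 51.6 and 51.5 FPKM in cKO, a difference of 0.10 ± 0.18 (SE). The iron-sulfur gene Sdhb was at 62.1, 57.1 and 65.6 FPKM in WT and 60.5, 41.5 and 47.2 FPKM in cKO, where cKO 1 lay within the WT range (difference -0.32 ± 0.21 SE).

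In complex III, which passes electrons from ubiquinol to cytochrome c, no member had groups that did not overlap. The core proteins Uqcrc1 and Uqcrc2 together summed to 138, 119.9 and 128 FPKM in WT and 118, 87.6 and 96.1 FPKM in cKO, which did not overlap, though cKO 1 lay just under WT 2. Uqcrc1 alone was at 101, 69.2 and 64.0 FPKM in WT and 69.9, 47.3 and 48.7 FPKM in cKO (difference -0.49 ± 0.26 SE, limma adjusted p = 0.770). The Rieske iron-sulfur protein gene Uqcrfs1 varied little, from 99.6 to 115 FPKM over the 6 libraries. Among the small subunits, Uqcr11 was at 67.1, 25.8 and 24.5 FPKM in WT and 53.2, 65.0 and 47.7 FPKM in cKO. Here WT 2 and WT 3 lay below the cKO values and WT 1 above them (difference 0.64 ± 0.39 SE). Uqcr10, the most abundant member of the complex, was at 218, 126 and 118 FPKM in WT and 155, 131 and 111 FPKM in cKO, and the hinge protein gene Uqcrh was at 92.5, 70.1 and 64.0 FPKM in WT and 84.7, 63.5 and 61.4 FPKM in cKO. In both genes WT 1 was the highest library.

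Complex IV, cytochrome c oxidase, hands the electrons to oxygen, and several of its small nuclear subunits exist as tissue-restricted isoforms. The ubiquitous Cox6a1, Cox8a and Cox4i1 had the highest means of the complex. Cox6a1 was at 561, 322 and 288 FPKM in WT and 302, 297 and 254 FPKM in cKO. Cox8a was at 284, 155 and 155 FPKM in WT and 153, 195 and 150.4 FPKM in cKO, and Cox4i1 at 281, 153 and 139 FPKM in WT and 193, 129.7 and 121 FPKM in cKO. In these 3 genes WT 1 was the highest library and the other WT values lay among or near the cKO values. Cox6b1, on the intermembrane side of the enzyme, was at 199, 106 and 65.4 FPKM in WT and 167, 162 and 145 FPKM in cKO (difference 0.50 ± 0.38 SE). Cox7b was at 51.7, 43.8 and 45.1 FPKM in WT and 51.5, 64.0 and 61.5 FPKM in cKO, with cKO 1 just under WT 1. Cox7a2 was at 113, 114 and 114 FPKM in WT, and at 114 FPKM in cKO 1 but 88.7 and 82.7 FPKM in cKO 2 and cKO 3.

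Cox6c, a small subunit with a single transmembrane helix, was at 34.7, 45.2 and 66.8 FPKM in WT and 32.5, 30.1 and 24.7 FPKM in cKO. The groups did not overlap, by a narrow gap between WT 1 and cKO 1 (difference -0.69 ± 0.27 SE, limma adjusted p = 0.692). Cox7a2l encodes a Cox7a-related protein that joins complexes III and IV in supercomplexes. It was at 85.5, 82.0 and 88.7 FPKM in WT and 74.4, 60.4 and 56.0 FPKM in cKO (difference -0.43 ± 0.19 SE, limma adjusted p = 0.736). Its share of the summed Cox7a1, Cox7a2 and Cox7a2l levels was 42.9%, 41.6% and 42.8% in WT and 39.1%, 40.0% and 39.9% in cKO, so the shares did not overlap either. The muscle isoforms were low in all libraries: Cox8b was listed at 0 in 5 of the 6, Cox6a2 stayed between 0.528 and 2.05 FPKM and Cox7a1 between 0.897 and 5.06 FPKM. The skeletal and heart muscle markers summed to 0.919 to 1.93 FPKM. Cox4i2, the isoform known from lung and from low oxygen, made up 16.8% of the Cox4i pair in WT 3 and 2.23% to 9.31% in the other libraries.

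The testis isoforms Cox6b2, Cox7b2 and Cox8c split the libraries in another way. Cox8c was at 1.28, 0.448 and 13.3 FPKM in WT and 55.5, 1.30 and 3.04 FPKM in cKO, and made up 26.6% of the Cox8 family in cKO 1 and 7.91% in WT 3. Cox7b2 was at 0.787, 1.14 and 16.4 FPKM in WT and 16.6, 0.110 and 0.735 FPKM in cKO, and Cox6b2 at 1.54, 1.16 and 5.73 FPKM in WT and 15.0, 0.699 and 1.44 FPKM in cKO. For all 3 genes the highest libraries were cKO 1 and WT 3, 1 from each group, and the differences between groups were smaller than their errors (0.28 ± 0.84 for Cox6b2, -0.33 ± 1.201 for Cox7b2 and 1.16 ± 1.29 for Cox8c). The spermatogonia and spermatocyte markers, 10 genes including Dazl, Sycp1 and Sycp3, were high in those libraries too, with sums of 3.40, 6.04 and 114 FPKM in WT and 89.4, 3.92 and 9.62 FPKM in cKO; Stra8 was listed at 0 in WT 1. The 14 spermatid markers summed to 159, 78.5 and 259 FPKM in WT and 403, 70.8 and 28.0 FPKM in cKO. The part of germ cell RNA in the levels of the testis isoforms was not tested.

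**Figure D4:**
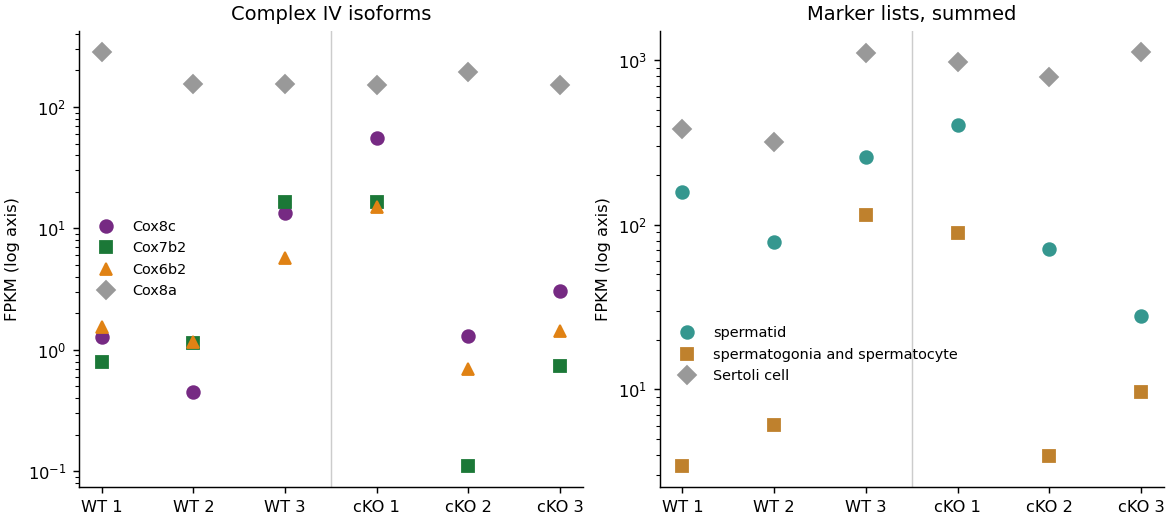
Left, FPKM of the testis isoforms Cox8c, Cox7b2 and Cox6b2 and of the ubiquitous Cox8a in each library; right, summed FPKM of the spermatid, the spermatogonia and spermatocyte, and the Sertoli marker lists (both on log axes). The testis isoforms and the germ cell lists are highest in WT 3 and cKO 1, while Cox8a lies between 150.4 and 284 FPKM.

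Complex V has a catalytic head, a ring of c subunits that turns with the protons, a peripheral stalk that holds the head still, and further membrane subunits that shape the dimer. Of its 18 tested members 13 had a negative difference, with a median of -0.31, and none had all cKO values above the WT values. The head genes Atp5b and Atp5a1, for the beta and alpha subunits, had the highest means. Atp5b was at 427, 356 and 305 FPKM in WT and 319.5, 292 and 280.4 FPKM in cKO, where cKO 1 lay above WT 3 (difference -0.27 ± 0.21 SE). Atp5c1, for the gamma subunit that turns inside the head, was at 140.3, 133 and 108 FPKM in WT and 105, 87.0 and 96.0 FPKM in cKO, a difference of -0.40 ± 0.20 (SE). Its groups did not overlap, unlike those of Atp5a1, at 328, 291 and 256 FPKM in WT and 291, 256 and 251 FPKM in cKO. Atp5d, for the delta subunit, had a positive difference of 0.23 ± 0.40 (SE), with WT values of 207, 95.2 and 71.1 FPKM around the cKO values of 171, 121 and 110.2 FPKM.

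The peripheral stalk genes Atp5f1, Atp5h, Atp5j and Atp5o summed to 232, 201 and 229.99 FPKM in WT and 174, 163 and 181 FPKM in cKO, with no overlap. Atp5h was at 88.7, 82.7 and 101 FPKM in WT and 61.2, 53.5 and 57.6 FPKM in cKO, a log2 difference of -0.65 ± 0.18 (SE; limma adjusted p = 0.575). The gap between the lowest WT and the highest cKO value was larger than the spread within either group. Atp5j was at 36.1, 37.4 and 49.8 FPKM in WT and 27.8, 30.4 and 32.1 FPKM in cKO (difference -0.42 ± 0.20 SE). Atp5f1, for the b subunit, was the exception in the stalk, at 48.4, 46.5 and 51.0 FPKM in WT and 47.1, 50.9 and 57.4 FPKM in cKO, and the groups of Atp5o overlapped.

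The other membrane subunits Atp5j2, Atp5k, Atp5l, Atp5l2-ps and Atp5mpl summed to 199, 107 and 110.2 FPKM in WT and 88.4, 95.1 and 67.9 FPKM in cKO. All 5 had a negative difference and 3 did not overlap. Atp5j2, for the f subunit, was at 53.7, 36.2 and 36.3 FPKM in WT and 26.0, 22.2 and 18.5 FPKM in cKO, the largest negative difference among the members at -0.88 ± 0.24 (SE; limma adjusted p = 0.553). Atp5mpl, a small proteolipid of the synthase, was at 52.4, 40.3 and 51.3 FPKM in WT and 32.7, 35.8 and 27.6 FPKM in cKO (difference -0.57 ± 0.20 SE, limma adjusted p = 0.652). Atp5l, for the g subunit, was at 17.3, 12.0 and 12.2 FPKM in WT and 10.3, 8.44 and 8.03 FPKM in cKO. Atp5k, for the e subunit, ran from 73.0 FPKM in WT 1 to 7.75 FPKM in WT 3, a wider range than its difference between groups of -0.23 ± 0.73 (SE). Atp5s, a protein related to coupling factor B, was low throughout, at 3.16, 2.69 and 4.42 FPKM in WT and 2.66, 2.25 and 2.37 FPKM in cKO.

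The ring is encoded by 3 genes that give the same mature protein. Of the summed level of these 3 genes, Atp5g3 and Atp5g2 supplied most. Atp5g3 was at 147, 90.3 and 63.4 FPKM in WT and 106, 101 and 93.0 FPKM in cKO, and Atp5g2 at 123, 81.2 and 48.2 FPKM in WT and 93.3, 78.3 and 77.5 FPKM in cKO, so that the WT values of both spanned the cKO values. Atp5g1 was at 28.1, 22.5 and 14.7 FPKM in WT and 15.6, 15.7 and 16.1 FPKM in cKO (difference -0.39 ± 0.26 SE). Its share of the ring was 9.43%, 11.6% and 11.6% in WT and 7.27%, 8.03% and 8.62% in cKO, without overlap, and these shares come with no test. They leave out Gm10039, annotated as a pseudogene and 99.8% identical to Atp5g1 over 411 bases, which was at 121, 82.7 and 106 FPKM in WT and 98.9, 72.6 and 64.5 FPKM in cKO. Over all copies of Atp5g1, 29.8% of the fragments of gene and copies were listed for copies in WT and 32.2% in cKO, so the level and share of Atp5g1 are uncertain.

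Many respiratory chain genes share a compact promoter with sites for a few broadly active factors, among them NRF1 and the ETS protein GABP, and YY1. RefSeq promoter windows (GRCm38.p6), all of the same length around the start of a gene, matched 67 of the 87 members, with 72 windows. An NRF1 pattern, GCGCA and GCGC with any base between, was found in 17 of the 67 genes (25.4%; 5.19% of all 27025 genes of the table), the ETS core CCGGAAG in 16 (23.9%; 9.93%) and the YY1 pattern AAGATGGCG in 7 (10.4%; 1.64%), reading both strands. At least 1 of them stood in 50.7% of the members and in 15.1% of all genes, and none of the matches in member windows overlapped a match to another pattern. Of the 12 matched members that lay lower in every cKO library 8 held a pattern (66.7%), against 26 of the other 55 (47.3%). Base composition was not matched in these shares, and a match is a run of letters and no measured site.

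The 150 bases before the start are shown for 6 members whose groups did not overlap and whose windows held a match. They are peripheral stalk and gamma subunit genes of complex V, complex I genes and, from the genes with the opposite order, Sdhd. No match stood in the windows of Ndufa13, Ndufb2, Ndufb5, Cox7a2l and Ndufc2, whose groups did not overlap either. A further window each of Atp5c1 and Atp5j held no match and is not shown. Capitals mark the matches. All 6 genes lie on the minus strand and are printed 5′ to 3′ along the gene: Atp5h chr11:115419920-115420069, Atp5j chr16:84834977-84835126, Atp5c1 chr2:10080433-10080582, Ndufb4 chr16:37654369-37654518, Ndufa8 chr2:36049339-36049488 and Sdhd chr9:50603850-50603999.
Atp5h: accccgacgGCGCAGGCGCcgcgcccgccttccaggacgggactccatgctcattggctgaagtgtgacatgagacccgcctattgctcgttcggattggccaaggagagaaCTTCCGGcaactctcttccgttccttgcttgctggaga
Atp5j: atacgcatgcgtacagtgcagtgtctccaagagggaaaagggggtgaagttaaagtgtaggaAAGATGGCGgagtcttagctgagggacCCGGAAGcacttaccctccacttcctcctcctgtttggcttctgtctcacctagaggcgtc
Atp5c1: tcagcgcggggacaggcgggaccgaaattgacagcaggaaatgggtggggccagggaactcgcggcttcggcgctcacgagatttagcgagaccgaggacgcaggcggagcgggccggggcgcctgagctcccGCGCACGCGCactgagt
Ndufb4: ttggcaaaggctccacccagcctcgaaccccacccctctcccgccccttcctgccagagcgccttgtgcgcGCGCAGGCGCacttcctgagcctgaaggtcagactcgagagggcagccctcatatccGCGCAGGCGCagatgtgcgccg
Ndufa8: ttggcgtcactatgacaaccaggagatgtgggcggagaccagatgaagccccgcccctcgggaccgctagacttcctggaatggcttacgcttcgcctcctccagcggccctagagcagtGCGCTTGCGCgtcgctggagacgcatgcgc
Sdhd: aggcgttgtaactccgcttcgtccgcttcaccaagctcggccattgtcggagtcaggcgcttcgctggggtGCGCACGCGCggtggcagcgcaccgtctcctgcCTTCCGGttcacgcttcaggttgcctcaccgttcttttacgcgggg
The windows of Atp5h and Sdhd each hold an NRF1 and an ETS pattern, and the cKO values of these genes lay on opposite sides of the WT values. Of short runs of bases after the Sdhd start, 0 were found in its annotated transcripts (GENCODE M21) on either strand. For Atp5h 10 such runs were found and for Ndufb4 31, while Atp5j, Atp5c1 and Ndufa8 were not checked. The start of Sdhd, and so the stretch printed before it, is uncertain. Atp5j pairs a YY1 pattern with an ETS pattern, and Ndufb4 holds the NRF1 pattern more than once. The factors' own genes did not pass the test: Nrf1 was at 3.72, 3.70 and 3.56 FPKM in WT and 4.21, 4.49 and 4.41 FPKM in cKO (difference 0.20 ± 0.19 SE), Gabpa was at 5.38, 11.2 and 10.2 FPKM in WT and 8.69, 13.4 and 17.97 FPKM in cKO, and Yy1 at 16.1, 20.5 and 23.3 FPKM in WT and 23.0, 23.9 and 24.7 FPKM in cKO.

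Respiratory chain genes have left many processed pseudogenes in the mouse genome, and reads from such copies can be exchanged with the parent's. A search of the annotated pseudogenes for at least 90% identity over at least 150 bases found 62 copies of 29 members. Of these, 29 copies reached 1 FPKM in some library and 24 passed the filter. All cKO values lay below the WT values in 7 of the 24 and above in 3, beside 5.01% and 6.28% of all genes tested. How the deposited values treat reads that match several places is not given in the sources, and the levels of these parents and copies are uncertain.

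The Cox7c copy Gm12338, identical to its parent over 192 bases, was at 68.1, 55.5 and 68.4 FPKM in WT and 26.6, 27.9 and 24.1 FPKM in cKO. The cKO values were close together and far below each WT value, with a difference of -1.25 ± 0.19 (SE; limma adjusted p = 0.248, and 0.0247 without WT 3). Cox7c itself was at 96.5, 98.6 and 146 FPKM in WT and 92.5, 104 and 86.6 FPKM in cKO, and its groups overlapped. The Ndufab1 copy Gm4459 was at 37.0, 24.3 and 27.0 FPKM in WT and 16.2, 16.3 and 15.2 FPKM in cKO. The parent, which encodes the acyl carrier protein, was at 7.76, 6.27 and 4.46 FPKM in WT and 3.94, 4.48 and 4.76 FPKM in cKO. The copy was higher only per base, with 468 exonic bases against 6883. In fragments the parent was higher in every library, at 1001, 842 and 624 in WT and 526, 518 and 659 in cKO. Gm4459 had 325, 222 and 257 in WT and 147, 128 and 143 in cKO. Another copy, Ndufab1-ps, overlapped between the groups, at 15.5, 14.4 and 6.94 FPKM in WT and 10.8, 11.5 and 11.8 FPKM in cKO (difference -0.03 ± 0.30 SE). Gm10221, identical to Atp5l over 309 bases, was at 126, 107 and 108 FPKM in WT and 84.0, 87.5 and 72.6 FPKM in cKO, with no overlap, as for Atp5l, while the groups of the copy Atp5l2-ps overlapped. Here too FPKM is per base: over all copies of Atp5l, 29.1% of the fragments of gene and copies were listed for copies in WT and 31.3% in cKO. Uqcrb has copies with opposite orders: Gm2962 was at 9.21, 3.81 and 4.69 FPKM in WT and 0.154, 1.42 and 1.18 FPKM in cKO, while Gm16089 was at 4.29, 1.37 and 3.08 FPKM in WT and 4.91, 5.50 and 9.04 FPKM in cKO. The Uqcr11 copy Gm16418 was at 14.7, 3.00 and 3.17 FPKM in WT and 26.9, 23.0 and 20.1 FPKM in cKO. With the fragments of each member added to those of its copies, the order changed for Ndufab1 alone among the 29, which joined the genes that lay lower in cKO.

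**Figure D5:**
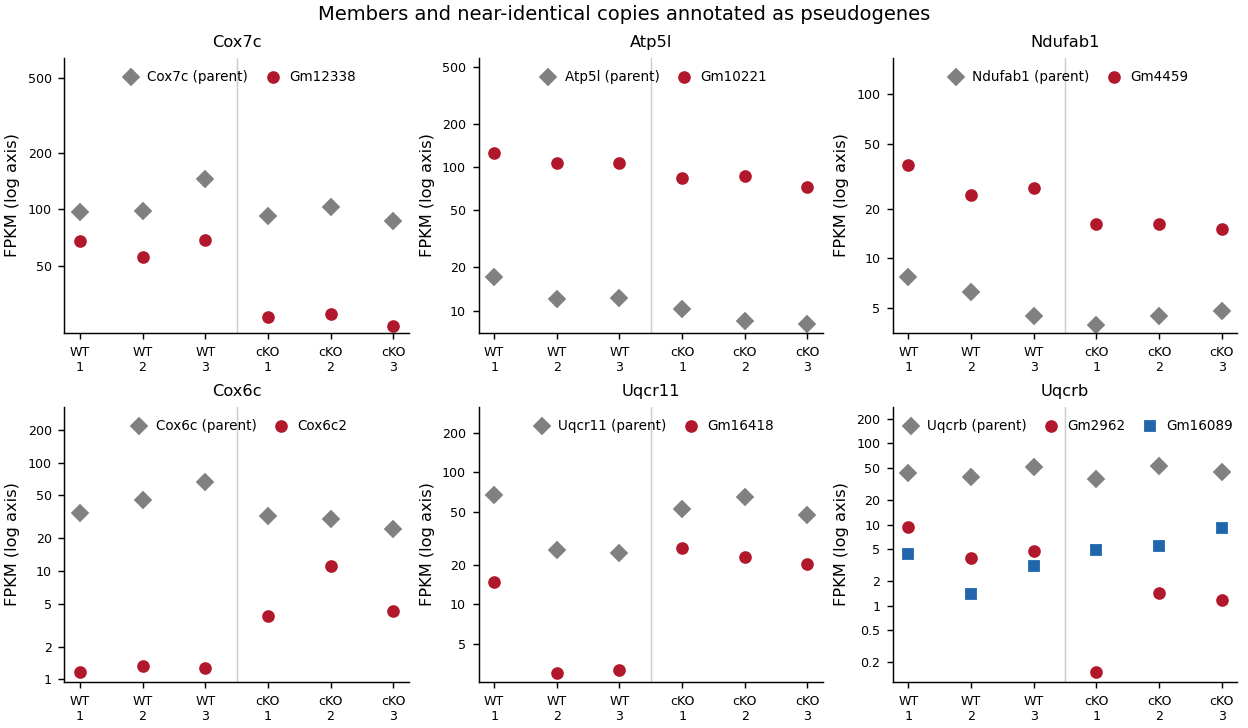
FPKM (log axis) in each library of 6 members and of copies chosen because their groups did not overlap, annotated as pseudogenes. Gm12338, Gm10221, Gm4459 and Gm2962 lie lower in the 3 cKO libraries, and Cox6c2, Gm16418 and Gm16089 higher; further copies of these members, some with overlapping groups, are not drawn, and FPKM is per length.

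Cox6c2 is itself a member and a near-identical copy of Cox6c. It was at 1.15, 1.33 and 1.28 FPKM in WT and 3.80, 11.1 and 4.31 FPKM in cKO, the reverse order of Cox6c (difference 1.58 ± 0.36 SE, limma adjusted p = 0.545). Those values rest on 5, 6 and 6 fragments in WT and 17, 43 and 20 in cKO. Over the 231 bases of the Cox6c coding sequence the 2 transcripts (GENCODE M21) differ at 7 bases, shown here in capitals. Within this stretch these bases are what can tell reads of the genes apart, and the longest identical run is 145 bases. Cox6c is annotated with 3567 exonic bases, and those outside the stretch were not compared.
Cox6c: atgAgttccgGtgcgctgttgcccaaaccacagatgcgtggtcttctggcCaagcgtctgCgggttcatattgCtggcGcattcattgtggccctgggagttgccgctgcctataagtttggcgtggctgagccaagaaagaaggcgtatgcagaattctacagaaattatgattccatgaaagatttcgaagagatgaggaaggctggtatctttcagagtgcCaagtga
Cox6c2: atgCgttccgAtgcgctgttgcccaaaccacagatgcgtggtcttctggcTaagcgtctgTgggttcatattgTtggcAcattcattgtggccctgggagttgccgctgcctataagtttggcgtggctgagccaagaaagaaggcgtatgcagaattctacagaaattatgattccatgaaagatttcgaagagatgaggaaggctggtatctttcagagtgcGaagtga
The 77 codons of Cox6c2 hold no stop codon before the final one, although the gene is annotated as a processed pseudogene. Fragments listed for Cox6c2 were 0.166% of the summed fragments of the pair in WT and 1.40% in cKO.

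Genes that build or feed the chain were read from lists beside the members. Of 52 assembly factors 48 were tested, 0 were called by limma (2 lower and 1 higher at an unadjusted p under 0.05), and the median difference was 0.01. All cKO values lay below the WT values for Tmem126a, Cox16 and Cox18 (6.25%, beside 5.01% of all genes tested). They lay above for Cox11, Cox14, Cox15, Coa7 and Taco1 (10.4%, beside 6.28%), 7 of these 8 genes being complex IV factors. Cox11, which delivers copper to complex IV, was at 1.99, 1.55 and 1.83 FPKM in WT and 4.21, 5.48 and 5.39 FPKM in cKO (difference 1.11 ± 0.21 SE, limma adjusted p = 0.389, and 0.0446 without WT 3). Cox16, needed to insert copper into the mitochondrially encoded mt-Co2 subunit, was at 1.17, 2.31 and 2.06 FPKM in WT and 0.5502, 0.461 and 0.809 FPKM in cKO (difference -0.81 ± 0.25 SE, limma adjusted p = 0.608). Tmem126a, a complex I assembly factor, was at 14.3, 17.2 and 17.3 FPKM in WT and 9.50, 10.9 and 12.8 FPKM in cKO. The assembly factors thus lay on both sides. For the other complexes the 2 genes with the smallest unadjusted p were Sdhaf1 (difference 0.62 ± 0.27) and Sdhaf2 (-0.17 ± 0.22) for complex II, Uqcc3 (0.35 ± 0.33) and Uqcc2 (-0.17 ± 0.24) for complex III, and Fmc1 (0.10 ± 0.22) and Atpaf2 (-0.08 ± 0.21) for complex V, all ± SE and all with overlapping groups.

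The genes that bring electrons to the chain did not pass the test either. Of 20 tested genes of cytochrome c, ubiquinone synthesis and ubiquinone-linked dehydrogenases, 1 lay lower in every cKO library (5%, beside 5.01% of all genes tested). It was Sqor, a sulfide oxidase that reduces ubiquinone, at 11.9, 9.73 and 8.77 FPKM in WT and 7.47, 7.29 and 4.51 FPKM in cKO. Of 23 citric acid cycle and pyruvate dehydrogenase genes, Pdk4 and Idh3g lay lower in every cKO library (8.7%, beside 5.01% of all genes tested). Dlat, Dlst and Pdhx lay higher (13%, beside 6.28%), and the median difference was -0.02. Idh3g, a subunit of isocitrate dehydrogenase, was at 45.2, 41.7 and 41.9 FPKM in WT and 37.2, 29.2 and 33.1 FPKM in cKO. Pdk4, a kinase that switches off pyruvate dehydrogenase, was at 13.9, 12.6 and 15.0 FPKM in WT and 12.6, 3.78 and 7.498 FPKM in cKO, where cKO 1 lay just under WT 2. Of the 14 tested regulators of mitochondrial biogenesis 12 had a positive difference and 2 a negative one, where 40.2% of all genes tested were negative. Their median was 0.14, beside 0.08 over all genes tested. Nrf1 and Polg lay higher in every cKO library (14.3%, beside 6.28% of all genes tested). limma called 0 genes of these 3 lists (1 lower and 0 higher at an unadjusted p under 0.05 in the first, 0 in the others), and in the mitochondrially encoded list 0 as well (2 lower and 0 higher).

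Of the 13 subunits encoded in mitochondrial DNA, 12 were tested, 7 of them had a negative difference, and their median was -0.18, beside -0.15 over the nuclear members. None had groups that did not overlap. The 13 genes summed to 9140.3, 12109 and 8895 FPKM in WT and 7494, 10466 and 15506 FPKM in cKO, with the highest sum in cKO 3, which was the lowest library for 22 of the nuclear members. mt-Nd3, of complex I, was at 49.2, 46.1 and 29.4 FPKM in WT and 22.8, 16.6 and 30.2 FPKM in cKO, and mt-Co3, of complex IV, at 22.4, 30.5 and 29.2 FPKM in WT and 15.9, 15.4 and 23.7 FPKM in cKO. These were the mitochondrially encoded genes with the smallest unadjusted p, and their groups overlapped.

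Markers of other cells differed between the same libraries. The 17 Sertoli markers summed to 382, 317 and 1114 FPKM in WT and to 983, 795 and 1125 FPKM in cKO, so that WT 3 lay among the cKO libraries. Of the 15 tested, 2, Dhh and Sox9, lay higher in every cKO library (13.3%, beside 6.28% of all genes tested). The 15 macrophage and leukocyte markers summed to 1305, 1027 and 254 FPKM in WT and 306, 179.8 and 235 FPKM in cKO. Of 14 tested, 13 had a negative difference, beside 40.2% of all genes tested. Aif1 and Fcgr3 lay lower in every cKO library (14.3%, beside 5.01%). With all 6 libraries limma called 0 markers of any list (at an unadjusted p under 0.05, 4 Sertoli and 2 endothelial markers were higher and 6 macrophage and leukocyte, 1 myoid and 1 fibroblast markers lower). Without WT 3 it called 9 Sertoli markers (median difference 1.30), 3 macrophage and leukocyte, 3 endothelial, 2 Leydig, 2 myoid and 1 fibroblast markers, while it called 0 members. The 6 peritubular myoid markers summed to 3049.7, 2399 and 506 FPKM in WT and 673 to 1263 FPKM in cKO, the 7 Leydig markers to 197 to 362 FPKM and 142 to 241 FPKM, the 8 fibroblast and stromal markers to 492 to 976 FPKM and 548 to 887 FPKM, and the 9 endothelial markers to 31.02 to 64.4 FPKM and 58.0 to 101 FPKM. All 7 endothelial markers tested had a positive difference, where 40.2% of all genes tested were negative. Among them Sox18 lay higher in every cKO library (14.3%, beside 6.28% of all genes tested). Of the 4 Leydig markers tested, 3 had a negative difference and 1 a positive one. Hsd3b1, a Leydig enzyme, was at 139, 79.8 and 8.99 FPKM in WT and 18.7, 11.6 and 11.6 FPKM in cKO. Star, with the positive difference, was at 29.7, 22.8 and 94.2 FPKM in WT and 77.0, 55.5 and 58.6 FPKM in cKO. These were the Leydig markers called without WT 3, Hsd3b1 as lower and Star as higher in cKO. The part of these cells in the members' values was not tested.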

How the data were processed

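RNA-seq of cultured mouse Sertoli cells was read from 6 tables, 1 per library, with groups (WT and cKO, 3 libraries each) taken from the labels. The deposited values are FPKM per gene; the unit was inferred from the values, since the authors name none in the files. HISAT2 2.1.0, FastQC and the build mm8 stand in the submitters' processing notes, while no source used here names the counter. The exonic lengths of a later annotation (GENCODE M21) accounted for the values, which leaves mm8 in doubt, so no coordinates of that build are given. With these lengths, 98.4% to 99.5% of low values (up to 10 fragments) lay within 0.02 times the fragment number of a whole number, which gave the depth.

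Genes with at least 1 FPKM in 3 libraries (12284) entered limma 3.58.1 (R 4.3.3) on log2 values, log2(FPKM + 1), computed from the deposited FPKM, with trended moderated variances, two-sided tests and Benjamini-Hochberg adjustment at 0.05 over all genes. A fold on this scale understates changes of low genes. Copies were found with BLAST+ 2.17.0, and sums, shares, motifs and permutations with Python 3.11.15. The fit was tested on simulated data, where it recovered most large changes but none of the smallest size simulated. That size was larger than most members' differences, and smaller changes were not simulated. A member that was not called may thus still differ.

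The members and lists were chosen with earlier results of these data known. The rule for named genes took, per complex, the 3 members with the highest mean and the 3 with the smallest unadjusted p, all genes of the isoform shares, and 2 genes per pathway list by unadjusted p; 1 gene under this rule is not reported here. Further members, copies and pathway genes whose groups did not overlap, and single genes quoted for contrast, were chosen after their values were seen. IDs without a symbol (343) were not used for members, and Coa1, Coa8, Pet117, Sco2, Myh4 and Myl1 were not analysed here. Alternatives changed the pseudocount, filter, scaling, weights, GC and length correction, blocking and libraries.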

Additional observations from a re-analysis of the deposited data

How the results depend on the processing

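With 3 libraries a group, limma called 0 members under all settings tried: pseudocounts of 0.1 and 5, no filter or one at 5 FPKM, median-ratio and quantile scaling, array weights, GC and length correction, each library left out, and a replicate block. The lowest adjusted p of a named member was 0.0806, for Atp5j2 without WT 3. Of 617 values of the 39 named members under these settings 29 changed sign and 0 passed the threshold; 25 members kept their sign in each. The members' median ran from -0.26 to -0.05. The count of genes called was 2, and 0 with no filter, with the replicate block and with the block plus GC and length correction; with 1 library left out it ran from 0 to 478 (4 without WT 1, 478 without WT 3). The replicate numbers did not pair the libraries (same-number correlations 0.14, 0.03 and -0.21), and WT 2 correlated best with cKO 3 (0.48).

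The log2 ratio of the summed level was -0.079 for complex II with median-ratio scaling (-0.00 as reported) and 0.069 for complex IV as a mean of log2 values. Signs changed for Atp5a1 (0.060) and Ndufa2 (0.046) with quantile scaling, for Uqcrfs1 with median-ratio scaling (-0.0049), for Atp5d (-0.053), Atp5g2 (-0.079), Atp5g3 (-0.056) and Cox6b2 (-0.34) with array weights, and with GC and length correction, with or without the replicate block, for Atp5g2 (-0.14) and Ndufa2 (0.040). With 1 library left out, the difference ran from -0.091 to 0.67 for Atp5d, -0.27 to 0.40 for Atp5g2, -0.20 to 0.39 for Atp5g3, -0.68 to 0.37 for Cox4i2, -0.71 to 0.91 for Cox6b2, -0.50 to 0.34 for Cox7a1, -1.55 to 0.73 for Cox7b2, -0.35 to 0.089 for Cox8a, -0.25 to 2.15 for Cox8c, -0.21 to 0.15 for Ndufa2, -0.34 to 0.11 for Uqcr10 and -0.25 to 0.045 for Uqcrh. The cause was not tested. Depth limits low members such as Cox6c2, with 5 or 6 fragments in each WT library.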

Other observations

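Base composition and length moved with the members' values. Over the members, the deviation of a gene from its mean correlated with GC content at r = 0.38 in WT 1 and -0.31 in WT 3, beside 0.35 and -0.35 over 12244 genes, which share the library. Across the 85 members the log2 difference correlated with exonic length at r = -0.39, and across all genes at 0.17. By annotated exonic length, 1 of 24 members under 1000 bases lay lower in every cKO library (4.17%; 11.3% of all genes of that length), 7 of 31 members from 1000 to 2000 bases (22.6%; 9.08%) and 8 of 30 longer members (26.7%; 3.76%). The part of length in the members' values was not tested.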
